A study of Mus musculus with 16 samples.

Results

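Sox10-positive neural crest cells of embryonic day 9.5 (E9.5) were compared between mouse embryos lacking the miR-302 microRNAs (KO) and wild-type embryos (WT). The comparison covered every gene whose mean level over the 4 libraries was 10 normalised read counts or more, which left 12000 of the 24421 genes in the table, and 4 of the 16 samples of the series. There were 2 KO and 2 WT libraries of C57BL/6 embryos, called KO1, KO2, WT1 and WT2 after their titles. The labels call the cells post migratory and the sorting was done by flow cytometry. They do not say how Sox10 was marked in the sort, how the miR-302 locus was removed, or whether a library came from 1 embryo or a pool, so the p-values measure only the spread between these 4 samples. Both KO libraries carry the code number 171 and both WT libraries 209, so whatever the number stands for and the genotype cannot be told apart.

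The neural crest leaves the dorsal neural tube, migrates through the embryo and forms peripheral neurons, glia, pigment cells and much of the facial skeleton. Sox10 is the transcription factor that marks migrating crest and is kept in its glial and pigment lineages. miR-302 is a cluster of microRNAs abundant in pluripotent cells and the early embryo, and its members silence messenger RNAs through matches to a short seed near their 5′ end, mostly in 3′UTRs. A lost microRNA is therefore usually looked for as a rise of messages that carry the seed match.

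The mature strands of the cluster that the RefSeq table (GRCm38.p6) holds are shown because their common seed, in capitals, defines the sites searched for. All 3 lie on the plus strand of chromosome 3. The seed, bases 2 to 8 of miR-302b, is the same in each, and the listed miR-302c strand begins at the first base of the seed.
miR-302b-3p: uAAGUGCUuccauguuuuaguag
miR-302c-3p: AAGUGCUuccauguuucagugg
miR-302d-3p: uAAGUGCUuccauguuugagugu

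Its match in a 3′UTR, the 8mer AGCACTTA, was found in the longest annotated 3′UTR of 4 genes that the results below return to. Each is given with the site in capitals inside its 30-base neighbourhood, in GRCm38 (mm10) and on the strand of the gene.
Ednrb: ctccgtggggaAGCACTTAgattcttagtc
Stmn2: ctaccagtcatAGCACTTAtgtctgctcct
Cdkn1a: gtgggtgtcaaAGCACTTAgtgggtctgac
Tmem245: tgttttttgaaAGCACTTAagactaaaatt
They lie on chromosome 14 for Ednrb, the endothelin receptor of crest cells, on 3 for Stmn2, a microtubule regulator of young neurons, on 17 for Cdkn1a, the p21 inhibitor of the cell cycle, and on 4 for Tmem245. The Ednrb site starts at base 230 of a 3′UTR of 2441 bases, and that of Stmn2 at base 593 of 1281. A match is a string of letters and not a shown binding site. Of 20100 genes with an annotated 3′UTR 612 held the 8mer.

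The deposited values are gene counts divided by 1 factor per library. Whole reads could be recovered from them, 7300598 to 14861728 a library, and levels below are the normalised read counts as deposited unless stated. On that scale the KO libraries summed to 13037900 (KO1) and 14623200 (KO2) and the WT libraries to 7392260 (WT1) and 7499920 (WT2). The targeted precursors could not check the labels: Mir302a, Mir302b, Mir302c, Mir302d and Mir367 had 0 reads in KO1, KO2 and WT1, and WT2 had 1 read, of Mir302b. For each precursor, 0 reads allow up to 3, which is 0.202 to 0.411 RPM (reads scaled to library size) over these depths, counting error only. Larp7, whose intron holds the cluster on the opposite strand, stood at 500.4 in KO1 and 1136 in KO2 against 844 in WT1 and 825 in WT2, and these unstranded libraries cannot separate its reads from antisense ones. Its KO and WT values overlapped (log2 difference -0.15, limma adjusted p = 0.774), and without KO1 it was higher, at 0.44 (adjusted p = 0.0294).

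In the values as deposited, limma called 2944 genes higher in KO, 24.5% of those tested, and 2756 lower, 23.0%, at a Benjamini-Hochberg adjusted p of at most 0.05. The smallest adjusted p was 0.000505. EdgeR's quasi-likelihood test on the recovered reads called 2950 and 2525, and 94.5% of the limma calls were among the edgeR calls in the same direction. In 4632 genes (38.6%) both KO libraries lay above both WT libraries and in 5005 (41.7%) both lay below. The lists of genes in the authors' deposited table gave 3548 as higher and 3282 as lower. Of those tested here, limma called 85.9% and 85.2% in the same direction. The number of calls changed with the library left out. Such a fit takes the spread from the pair of the other genotype alone. The median absolute log2 difference was 0.206 within the WT pair and 0.580 within the KO pair. Without WT1 there were 932 higher and 175 lower, without WT2 740 and 54, and without KO1 4141 and 4553.

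The difference ran along transcript length. Genes with short transcripts were higher in KO and genes with long transcripts were higher in WT. Ranked by their longest GENCODE transcript and cut into 10 classes of near-equal size, the shortest class held 1195 genes of 55 to 1223 bases, of which 981 were called higher and 3 lower, with a median log2 difference of 2.24. The longest class held 1192 genes of 6687 to 123179 bases, of which 41 were called higher and 521 lower, with a median of -1.67. Across 11919 genes with a known length, which are not independent replicates, the log2 difference and length had a Spearman correlation of -0.68. The trend was in each library's own deviation from the gene's mean, at -0.50 in KO1, -0.61 in KO2, 0.63 in WT1 and 0.69 in WT2. It was also inside the genotypes: the difference between the 2 WT libraries correlated with length at -0.48, and that between the 2 KO libraries at 0.28. With these 4 libraries, length and genotype cannot be told apart.

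**Figure D1:**
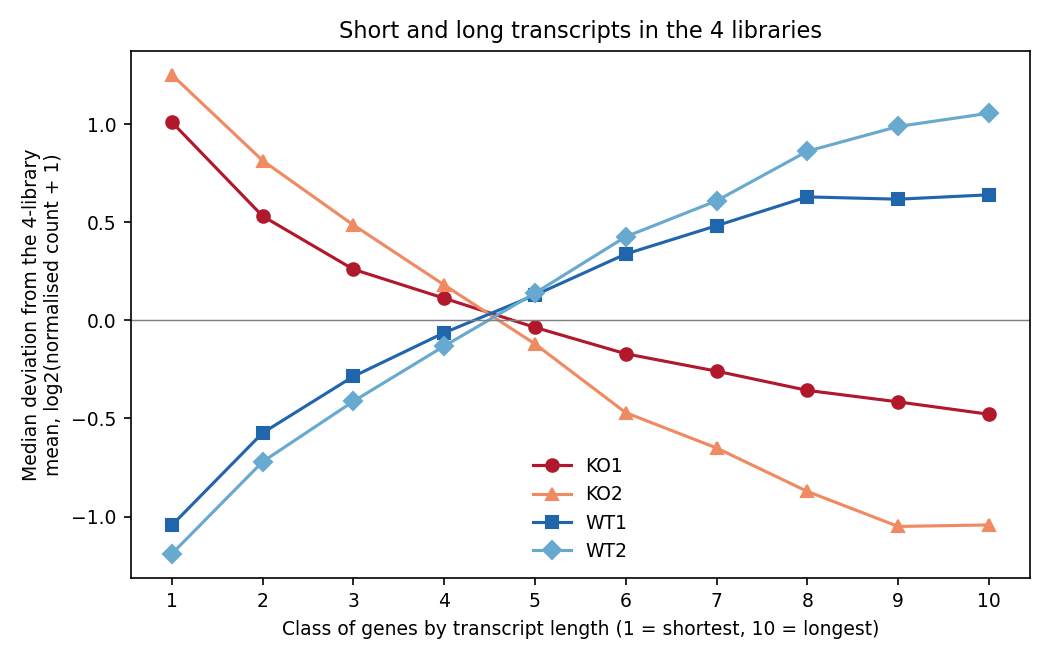
Each line is 1 library and each point the median, over the genes of a length class, of the gene's log2(normalised count + 1) minus its mean over the 4 libraries. The 10 classes run from the shortest transcripts on the left to the longest on the right, and the KO lines fall from 1.01 and 1.25 to -0.48 and -1.04 while the WT lines rise from -1.04 and -1.19 to 0.64 and 1.06.

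A second fit therefore removed from each library a loess trend over transcript length and then over GC content. It is called the length-corrected fit below. It called 1314 genes higher (11.0%) and 1177 lower (9.87%) of 11919, of which 931 and 762 had the same call in the values as deposited. A set of 124 genes turned from higher to lower and 6 from lower to higher. The longest annotated transcript is not always the one expressed, so a further fit used the shortest. Called in the same direction in all 3 fits were 687 genes higher (5.76%) and 473 lower (3.97%), and a gene is said to hold in all 3 fits only where it is one of these. The correction still depends on the annotation. Rps20, a ribosomal protein gene with 19542 in KO1 and 18388 in KO2 against 2495 in WT1 and 2420.3 in WT2, is annotated with a transcript of 3706 bases and had a length-corrected log2 difference of 3.76. Atp5g1, an ATP synthase subunit annotated at 4715 bases, went from 4.34 with its longest transcript to 1.28 with its shortest.

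The ribosomal, respiratory and histone families, all with short messages, were higher in nearly every member. All 78 cytoplasmic ribosomal protein genes tested were higher in KO, with a median log2 difference of 2.61. Rps29 stood at 44307 in KO1 and 45118 in KO2 against 4797 in WT1 and 4868 in WT2, a 9.25-fold difference, and Rpl39 at 32545 in KO1 and 30723 in KO2 against 3183 in WT1 and 3331 in WT2. Of 75 nuclear genes of oxidative phosphorylation 72 were higher and 2 lower, with a median of 2.50, and Cox8a, a cytochrome oxidase subunit, stood at 18394 in KO1 and 19634 in KO2 against 2503 in WT1 and 2251 in WT2. All 25 replication-dependent histone genes were higher, with a median of 2.99. Hist1h2ae had 6934 in KO1 and 7645 in KO2 against 859 in WT1 and 824 in WT2. The median transcript was 910 bases long in the ribosomal list, 936.5 in the oxidative phosphorylation list and 704 in the histone list, against 3069 over all genes tested. Of all tested genes of 55 to 1223 bases 82.1% were called higher (median 2.24).

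After length correction their medians were 0.23, 0.15 and 0.52, with 35 of 78, 19 of 74 and 4 of 25 genes higher, against 11.0% of all genes. Rps29 had a length-corrected log2 difference of 0.08 (adjusted p = 0.559) and Cox8a of 0.15 (adjusted p = 0.395). With the shortest transcript both were higher, at 1.53 and 1.27 (adjusted p = 0.00426 and 0.00541). Without WT1 and without WT2, 73 and 72 ribosomal, 63 and 60 oxidative phosphorylation and 10 and 10 histone genes were called higher. How much of their rise belongs to length was not tested beyond these fits.

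Genes of the mature liver, which neural crest does not normally express, were higher in both KO libraries. Of 35 liver plasma protein genes tested, 34 were higher in KO and 0 lower, with a median log2 difference of 6.37, 34 were higher after length correction (median 4.92), and 33 held in all 3 fits. Alb, serum albumin (ENSMUSG00000029368.10, chromosome 5, 90460897 to 90476602, plus strand), stood at 1589 in KO1 and 3562 in KO2 against 4.05 in WT1 and 17.2 in WT2, a 249-fold difference (log2 7.96 ± 0.73 SE, adjusted p = 0.00152). Apoa2, an apolipoprotein of high-density lipoprotein, stood at 1030.3 in KO1 and 2332 in KO2 against 9.11 in WT1 and 14.1 in WT2, and Fabp1, the liver fatty acid binding protein, at 944 in KO1 and 1994 in KO2 against 6.08 in WT1 and 10.6 in WT2. Ttr, the thyroxine carrier transthyretin, had 290.3 in KO1 and 816 in KO2 against 0 in WT1 and 2.52 in WT2. Trf, transferrin, was present in both genotypes, at 558 in KO1 and 993 in KO2 against 103 in WT1 and 71.2 in WT2. In every one of these genes both KO libraries lay above both WT libraries.

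Liver enzymes and secreted proteins outside the list were higher in the same way. Gc, the vitamin D binding protein, had 385 in KO1 and 1052 in KO2 against 0 in WT1 and 4.54 in WT2, and Mat1a, the liver methionine adenosyltransferase, 193 in KO1 and 605 in KO2 against 0 in WT1 and 3.03 in WT2. Slco1b2, a bile acid and drug transporter of hepatocytes, had 168 in KO1 and 248 in KO2 against 0 in both WT libraries, at least 108-fold higher when 3 reads are allowed over the WT group. Pck1, which commits carbon to glucose synthesis, had 133 in KO1 and 313 in KO2 against 0 in both WT libraries, at least 109-fold higher on the same floor. C3, the central complement protein, and Cps1, the first enzyme of the urea cycle, have long transcripts of 5136 and 5555 bases, and both were higher, with 105 and 345 in KO, 0 and 1.01 in WT for C3 and 66.5 and 122 in KO, 1.01 and 0.505 in WT for Cps1.

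The major urinary proteins, made by adult hepatocytes, were high in KO: Mup3 had 395 in KO1 and 855 in KO2 against 1.01 in WT1 and 5.55 in WT2, and Mup13 and Mup2, close copies whose reads the counting could have split, had 1518 and 1445 in KO2. Afp, an albumin relative made by the fetal liver, stood at 1.06 in KO1 and 0 in KO2 against 0 in WT1 and 0.505 in WT2. Hnf4a, the hepatocyte transcription factor, had 7.39 in KO1 and 6.8 in KO2 against 0 in both WT libraries. Levels of the list followed the KO library: 34 of 35 genes were higher in KO2 than in KO1, with a median ratio of 2.40. Summed over the 42 liver genes in the table, the markers made up 0.0595% of the library total in KO1, 0.120% in KO2 and 0.00278% and 0.00276% in WT1 and WT2, and 1, 2, 21 and 11 of them had 0 reads. Without WT1 17 and without WT2 14 of the 35 were called. In bulk samples, cells of another type and RNA of that type without cells cannot be told apart, and neither can fewer cells of a type and less RNA per cell.

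Red cell genes stood far higher in KO1 than in the other libraries. Hbb-y, the embryonic beta-type globin (ENSMUSG00000052187.4, chromosome 7, 103851749 to 103853216, minus strand), stood at 121762 in KO1 and 32.3 in KO2 against 0 in WT1 and 4.54 in WT2. Hbb-bh1 had 91613 in KO1 and 155 in KO2 against 0 in WT1 and 2.02 in WT2, and Hba-x, the embryonic alpha-type globin, 57095 in KO1 and 69.7 in KO2 against 1.01 in WT1 and 0.505 in WT2. Alas2, the first enzyme of heme synthesis in red cells, had 1763 in KO1 and 37.4 in KO2 against 6.08 in WT1 and 6.56 in WT2, and Klf1, the erythroid transcription factor, 593 in KO1 and 5.1 in KO2 against 0 in WT1 and 5.05 in WT2. In each of these genes KO1 stood above the other 3 libraries. KO2 stood above both WT libraries for the globins and Alas2, and for Klf1 it was nearly level with WT2 (5.1 and 5.05).

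Of 20 erythroid genes tested 6 were called higher and 0 lower (median log2 difference 3.75, or 4.80 with genes at 0 in a whole group at their bound). The higher share of 30% lay near the 24.5% of all genes, and 1 erythroid gene held in all 3 fits, against 5.76% of all genes. Without KO2 19 were called and without KO1 7 were called higher and 1 lower, with a median of 0.32. The summed share was 2.18% of the total in KO1, 0.0320% in KO2, 0.0200% in WT1 and 0.0191% in WT2, so the excess in KO2 over WT was small beside that of KO1. Blvrb, a biliverdin reductase of red cells, was higher as deposited, at 1062 in KO1 and 148 in KO2 against 12.2 in WT1 and 11.1 in WT2 (adjusted p = 0.0117). It missed the threshold after length correction over the longest (adjusted p = 0.0973) and over the shortest transcripts (adjusted p = 0.0637).

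Macrophage genes were detected in both KO libraries at low level. Ctss, cathepsin S, had 61.2 in KO1 and 78.2 in KO2 against 0 in both WT libraries, Lyz2, lysozyme, 53.8 in KO1 and 64.6 in KO2 against 0 in both WT libraries, and C1qc, a complement subunit of macrophages, 43.3 in KO1 and 42.5 in KO2 against 0 in both WT libraries. Each had 0 reads in both WT libraries, and on a floor of 3 reads over the WT group they were at least 36.7, 31.4 and 23.3-fold higher. In the list 6 of 13 genes tested were higher and 0 lower (median 4.19, or 3.85 at the bound), 2 held in all 3 fits, and none was called without WT1 or without WT2. The higher share of the list was 46.2% against 24.5% of all genes. Ptprc, the pan-leukocyte antigen CD45, had 4.22 in KO1 and 62.9 in KO2 against 0 in both WT libraries. The list of epithelial and surface ectoderm genes had 8 genes tested and none called, with all 8 positive (median 2.22). Without KO2 6 were called higher and 1 lower (median 4.06), and without KO1 2 were called higher. Epcam, an epithelial adhesion protein, stood at 235 in KO1 and 42.5 in KO2 against 17.2 in WT1 and 10.1 in WT2. Wfdc18, a secreted whey acidic protein family member, was called higher as deposited (adjusted p = 0.00856), with 476 in KO1 and 49.3 in KO2 against 0 in both WT libraries. After length correction it missed the threshold over the longest transcripts (adjusted p = 0.0729) and passed over the shortest (adjusted p = 0.0303).

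Y-linked genes separated the genotypes. Eif2s3y had 171 in KO1 and 202 in KO2 against 0 in both WT libraries, Ddx3y 29.6 in KO1 and 54.4 in KO2 against 0 in both WT libraries, Kdm5d 44.3 in KO1 and 37.4 in KO2 against 0 in both WT libraries and Uty 52.8 in KO1 and 27.2 in KO2 against 0 in both WT libraries, and all 4 held in all 3 fits. On the floor of 3 reads over the WT group Eif2s3y was at least 99.1-fold higher. Xist, the RNA that coats the inactive X in females, was present in every library, at 79.2 in KO1 and 202 in KO2 against 161 in WT1 and 248 in WT2, and its KO and WT ranges overlapped. Whether each library held embryos of 1 or both sexes is not given in the sources used here, and the presence of Y-linked RNA and the genotype cannot be told apart. The part of liver, blood and sex-linked RNA in the other differences was not tested. Leaving the liver and blood lists out with the size factors kept changed no other named call, and left 2901 genes higher and 2759 lower.

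**Figure D2:**
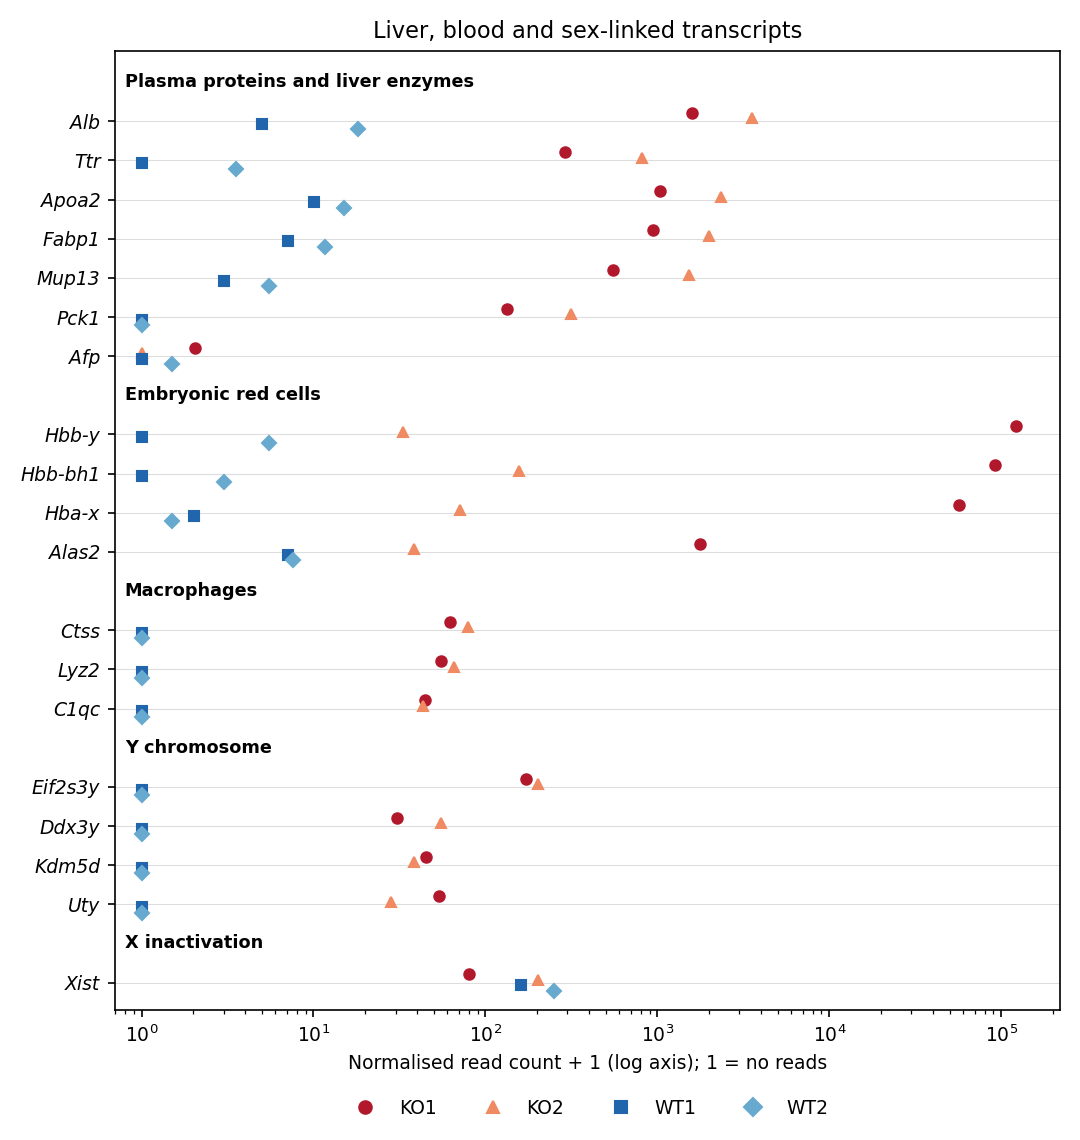
Normalised read count + 1 on a log axis for each of the 4 libraries, where 1 means no reads. Liver genes stand high in both KO libraries and highest in KO2 (Alb 1589 and 3562), embryonic globins stand high in KO1 (Hbb-y 121762 against 32.3 in KO2), and the 4 Y-linked genes have 0 reads in both WT libraries.

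The sorted cells carried the crest markers in both genotypes. Sox10 (ENSMUSG00000033006.10, chromosome 15, 79154908 to 79165240, minus strand) stood at 511 in KO1 and 1165 in KO2 against 722 in WT1 and 639 in WT2, and the KO values lay on both sides of the WT values (log2 difference 0.18 ± 0.41 SE, adjusted p = 0.724). Of the early crest specifiers Foxd3 and Tfap2a also overlapped, with 79.2 and 294 in KO, 111 and 82.3 in WT for Foxd3 and 55.9 and 39.1 in KO, 28.4 and 41.4 in WT for Tfap2a. Pax3 had 198 and 279 in KO, 366 and 289 in WT, so both KO values lay below the WT values without passing the test (adjusted p = 0.241). Tfap2b had 287 in KO1 and 729 in KO2 against 737 in WT1 and 619.7 in WT2. A miss of the threshold with 2 libraries a group does not show that these genes were alike in KO and WT.

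Among 27 crest transcription factors 3 were higher and 8 lower, shares of 11.1% and 29.6% against 24.5% and 23.0% of all genes. Their median log2 difference was -0.68 against -0.14 over all genes. After length correction 2 were higher and 4 lower (median -0.09 against -0.16), and 2 were lower in all 3 fits. Sox9, the factor of crest induction and of cartilage, had 209 in KO1 and 457 in KO2 against 1506 in WT1 and 1359 in WT2, 4.61-fold lower (adjusted p = 0.00909). After length correction its log2 difference was -1.13 (adjusted p = 0.171). Ets1, a factor of cranial crest, had 149.9 in KO1 and 148 in KO2 against 648 in WT1 and 845 in WT2, 4.94-fold lower as deposited, with a length-corrected value of -0.86 (adjusted p = 0.0761) over the longest and -3.82 (adjusted p = 0.00426) over the shortest transcripts. Mycn, the growth regulator N-Myc, fell in all 3 fits, with 886 in KO1 and 1115 in KO2 against 2214 in WT1 and 2618 in WT2 (2.42-fold as deposited and 2.54-fold length-corrected). Id2 and Id3, inhibitors of helix-loop-helix factors and targets of bone morphogenetic protein (BMP) signals, were higher as deposited, Id2 at 4518 in KO1 and 7436 in KO2 against 1732 in WT1 and 1901 in WT2 and Id3 at 13305 in KO1 and 15900.5 in KO2 against 3468 in WT1 and 3974 in WT2. Id2 stayed higher over the longest transcripts (adjusted p = 0.034) and not over the shortest (adjusted p = 0.233). Id3 did the reverse, with 0.22 over the longest (adjusted p = 0.366) and 0.88 over the shortest (adjusted p = 0.0234). Both KO libraries lay outside the WT values for each of these 5 genes.

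Receptors through which crest cells read their surroundings were called lower more often than higher. Of 18 genes of endothelin, Ret, Kit, neuregulin and chemokine signalling 2 were higher and 10 lower (median -1.95). These shares of 11.1% and 55.6% stand beside 24.5% and 23.0% of all genes. Their median transcript was 4728.5 bases, and of all tested genes of 4248 to 5098 bases 45.1% were lower. After length correction 2 genes of the list were higher and 3 lower (median -0.47), against 11.0% and 9.87% of all genes. Ednrb (ENSMUSG00000022122.15, chromosome 14, 103814625 to 103844402, minus strand), the endothelin receptor needed by enteric and pigment precursors, stood at 84.4 in KO1 and 62.9 in KO2 against 569 in WT1 and 387 in WT2, 6.36-fold lower (log2 -2.67 ± 0.35 SE, adjusted p = 0.00382). It was 3.13-fold lower after length correction (adjusted p = 0.0331) and held in all 3 fits. Its 3′UTR carries the 8mer printed above. Pdgfra, the platelet-derived growth factor receptor of crest mesenchyme, had 54.9 in KO1 and 23.8 in KO2 against 353 in WT1 and 607 in WT2 and fell in all 3 fits.

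Ret, the receptor of the enteric lineage, had 0 in KO1 and 0 in KO2 against 115 in WT1 and 29.3 in WT2, at least 54.2-fold lower when 3 reads are allowed over the KO group. After length correction it was -4.52 on the log2 scale, against -5.89 as deposited, and missed the threshold over the longest transcripts (adjusted p = 0.0553) but passed over the shortest (adjusted p = 0.0431). Erbb3, the neuregulin receptor of glial precursors, had 59.1 in KO1 and 22.1 in KO2 against 166 in WT1 and 219 in WT2, Kit, the receptor of melanoblasts, 33.8 in KO1 and 3.4 in KO2 against 139 in both WT libraries, and its ligand gene Kitl 72.8 in KO1 and 52.7 in KO2 against 255 in WT1 and 288 in WT2. All 3 were lower as deposited (adjusted p = 0.0234, 0.0408 and 0.0074) and none passed after length correction (log2 -0.91, -2.02 and -0.55, adjusted p = 0.152, 0.169 and 0.21). Over the shortest transcripts Kitl passed, at -3.52 (adjusted p = 0.00584). Gfra3, the artemin co-receptor of sympathetic and sensory precursors, went the other way, with 257 in KO1 and 197 in KO2 against 37.5 in WT1 and 30.8 in WT2, 6.46-fold higher (adjusted p = 0.00531) and 3.81-fold higher after length correction. No member of the list was called without WT1 or without WT2.

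Of 22 genes of glia and Schwann cell precursors 7 were higher and 5 lower (median 0.50), shares of 31.8% and 22.7% that lie near the 24.5% and 23.0% of all genes, 3 and 1 after length correction (median 0.87), and 2 and 1 in all 3 fits. Metrn, the secreted glial factor meteorin (ENSMUSG00000002274.13, chromosome 17, 25793221 to 25797136, minus strand), had 7325 in KO1 and 6537 in KO2 against 989 in WT1 and 813 in WT2, 7.71-fold higher (log2 2.95 ± 0.17 SE, adjusted p = 0.000541). Its length-corrected log2 difference was 3.05 with the longest and 1.31 with the shortest transcript. Fabp7, a fatty acid binding protein of glial precursors, had 748 in KO1 and 1156 in KO2 against 135 in WT1 and 92.9 in WT2 and was higher as deposited, with a length-corrected 0.73 (adjusted p = 0.0957) over the longest and 1.79 (adjusted p = 0.0122) over the shortest transcripts. L1cam, a cell adhesion molecule of axons and migrating crest, had 9.5 in KO1 and 5.1 in KO2 against 126 in WT1 and 145 in WT2, and was lower in all 3 fits. Cadm1, another adhesion molecule, had 485 in KO1 and 739.5 in KO2 against 2035 in WT1 and 1919 in WT2, lower as deposited and after correction over the shortest transcripts (log2 -2.79) but not over the longest (adjusted p = 0.355). The median of the list turned to -0.36 when the libraries were scaled to equal totals without liver and blood genes, a scaling that shifted the median of all genes by -0.87.

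Neuronal genes gave few calls, and their direction followed the KO library. Of 26 sensory and autonomic genes 3 were higher and 1 lower, below the 24.5% and 23.0% of all genes, with a median of 0.38, or -0.43 under the same scaling to equal totals. Without KO1 9 were higher and 3 lower (median 1.07), and without KO2 2 were higher and 9 lower (median -0.37). Stmn2 was higher in all 3 fits, with 60.2 in KO1 and 126 in KO2 against 5.06 in WT1 and 3.03 in WT2 (17.8-fold, adjusted p = 0.00937), and its 3′UTR carries the 8mer shown above. Stmn3 had 60.2 in KO1 and 153 in KO2 against 14.2 in WT1 and 1.51 in WT2. Dct, a pigment gene, had 0 reads in all 4 libraries, and Mitf, the pigment master factor, 5.28 and 0 in KO, 6.08 and 12.1 in WT.

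Of 26 pharyngeal arch mesenchyme factors 1 was higher and 7 lower (median -1.10), the lower share of 26.9% lying near the 23.0% of all genes, and 3 were lower in all 3 fits. Dlx3 and Dlx5, homeobox genes of the arches and of the ectoderm around the neural plate, had 9.5 and 0 in KO, 180.2 and 288 in WT for Dlx3 and 26.4 and 0 in KO, 218 and 377 in WT for Dlx5. Both were at 0 in KO2 and fell in all 3 fits. Alx4, a factor of the craniofacial mesenchyme, had 80.2 in KO1 and 25.5 in KO2 against 408 in WT1 and 442 in WT2 and also held. Of 24 neural tube progenitor factors 5 were higher and 1 lower (median 1.03), the higher share of 20.8% lying near the 24.5% of all genes, and 1 held in all 3 fits. Otx1, a forebrain and midbrain factor, had 66.5 in KO1 and 49.3 in KO2 against 12.2 in WT1 and 6.06 in WT2, Lhx2, an eye and forebrain factor, 93.9 in KO1 and 42.5 in KO2 against 5.06 in WT1 and 7.07 in WT2, and Hes5, a Notch target of neural progenitors, 259 in KO1 and 190.4 in KO2 against 36.5 in WT1 and 21.7 in WT2. Otx1 was higher in all 3 fits, Lhx2 lost its call with the shortest transcript (adjusted p = 0.0591) and Hes5 with the longest (adjusted p = 0.111). Scaled to equal totals, 3 neural tube factors were higher and 3 lower.

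**Figure D3:**
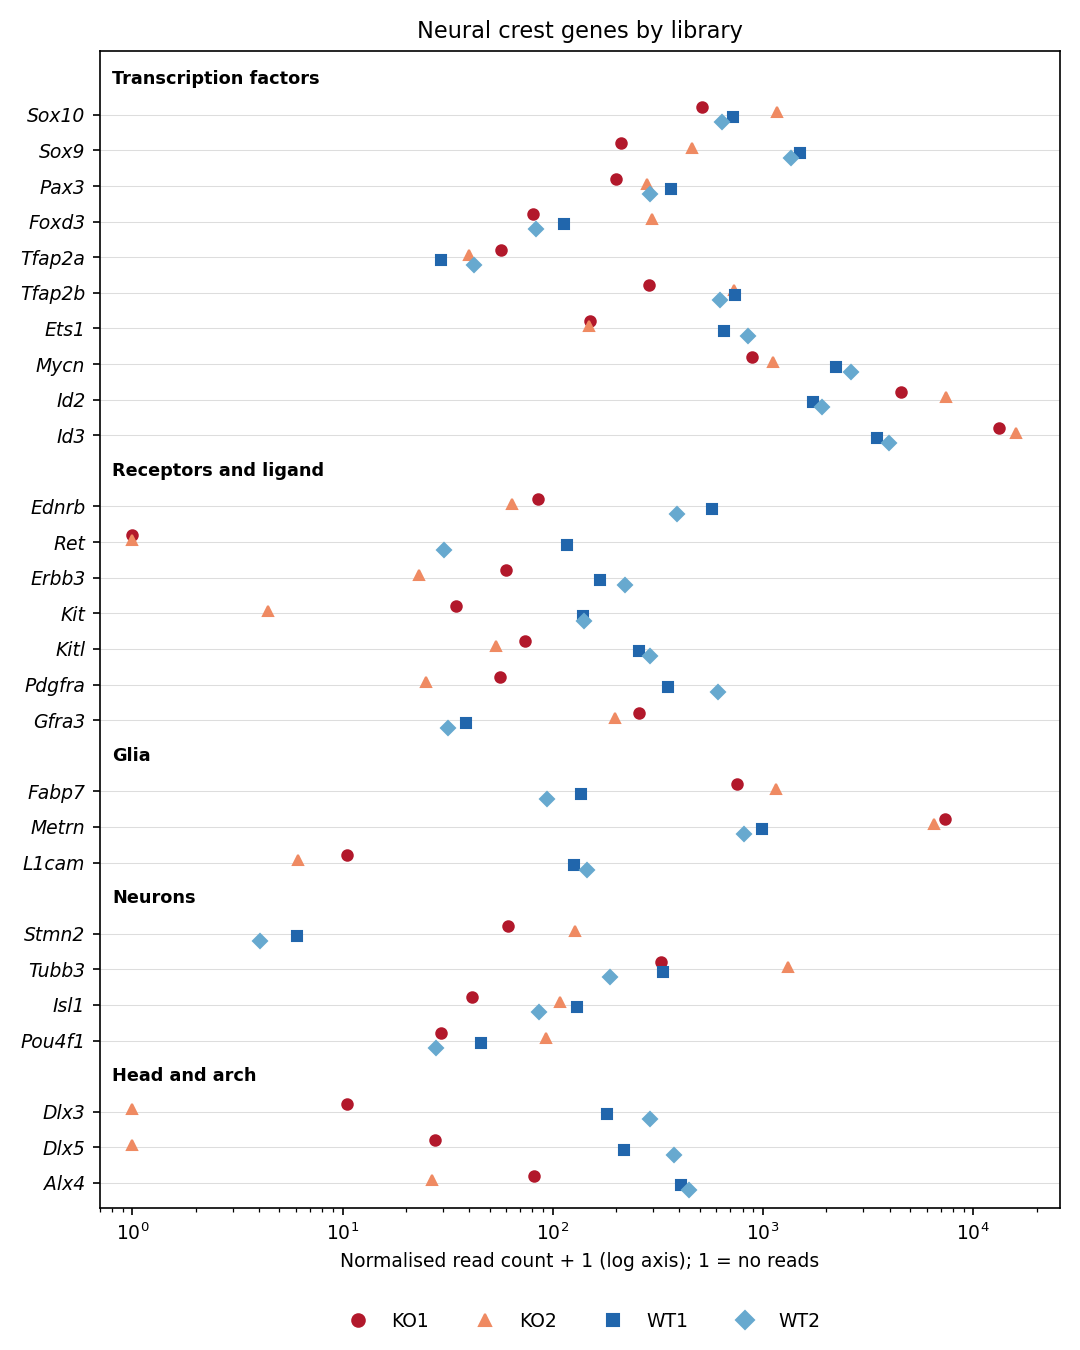
Normalised read count + 1 on a log axis in each of the 4 libraries for crest transcription factors, receptors, glial, neuronal and arch genes. Sox10, Foxd3 and Tfap2a overlap between genotypes, Ednrb, Pdgfra and L1cam lie lower in both KO libraries, and Metrn, Fabp7 and Gfra3 lie higher.

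The extracellular matrix was the list that stood lowest in KO. Of 40 collagen and matrix genes 2 were higher and 24 lower, or 60% of the list against 23.0% of all genes. The median log2 difference was -2.33. Their median transcript was 5643.5 bases, and of all tested genes of 5099 to 6685 bases 44.5% were lower (median -1.63). After length correction 1 matrix gene was higher and 9 lower, with a median of -1.15, and 9 were lower in all 3 fits against 3.97% of all genes. Nid1 and Nid2, the nidogens that link laminin to collagen in basement membranes, had 54.9 and 25.5 in KO, 619 and 816 in WT and 65.4 and 39.1 in KO, 717 and 1019 in WT, 18.5 and 16.6-fold lower as deposited and 6.37 and 6.84-fold after length correction. Col1a2, a chain of fibrillar type I collagen, had 67.6 in KO1 and 111 in KO2 against 848 in WT1 and 1247 in WT2, and Col3a1, type III collagen, 364 in KO1 and 185 in KO2 against 2335 in WT1 and 3446 in WT2. Col2a1 and Col9a1, which build cartilage and surround the notochord and otic vesicle, had 383 and 202 in KO, 1517 and 2053 in WT for Col2a1 and 84.4 and 95.2 in KO, 533 and 650.0 in WT for Col9a1. Mmp2, a matrix metalloproteinase, had 188 in KO1 and 111 in KO2 against 762 in WT1 and 899 in WT2. These 7 genes were lower in all 3 fits, and no KO value reached a WT value. The count of lower members was 33 without KO1, 26 without KO2, 5 without WT1 and 1 without WT2.

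Guidance and adhesion genes, by which crest cells find their path, followed. Of 45 guidance ligands and receptors 1 was higher and 18 lower (median -2.17), a lower share of 40% against 23.0% of all genes. Their median transcript was 5698 bases, and of all tested genes of 5099 to 6685 bases 44.5% were lower (median -1.63). After length correction 0 guidance genes were higher and 7 lower (median -0.89). Those 7 held in all 3 fits, against 3.97% lower of all genes. Epha3, a receptor of ephrin-A ligands, had 0 in KO1 and 0 in KO2 against 75.9 in WT1 and 129.7 in WT2, at least 105-fold lower with 3 reads allowed over the KO group. Ephb3, an ephrin-B receptor of crest streams, had 50.7 in KO1 and 25.5 in KO2 against 350.3 in WT1 and 366 in WT2, Nrp2, a semaphorin co-receptor, 38.0 in KO1 and 37.4 in KO2 against 335 in WT1 and 546 in WT2, Sema5a 9.5 in KO1 and 6.8 in KO2 against 147 in WT1 and 225 in WT2 and Robo1, a Slit receptor, 16.9 in KO1 and 5.1 in KO2 against 248 in WT1 and 337 in WT2. Of 17 integrins and classical cadherins 0 were higher and 10 lower (median -2.20), and 3 were lower in all 3 fits. The lower share was 58.8% with a median transcript of 4843 bases, against 45.1% of all tested genes of 4248 to 5098 bases. Itgb1, the beta chain common to the fibronectin and laminin receptors, had 476 in KO1 and 425 in KO2 against 2304 in WT1 and 2575 in WT2 (5.4-fold lower, 2.84-fold length-corrected), and Itga5, its fibronectin-receptor partner, 38.0 in KO1 and 27.2 in KO2 against 217 in WT1 and 307 in WT2. Cdh11, a cadherin of migrating crest, had 458 in KO1 and 279 in KO2 against 1765 in WT1 and 2373 in WT2 and held in all 3 fits. Cdh2, N-cadherin, had 149 in KO1 and 196 in KO2 against 822 in WT1 and 944 in WT2 and did not pass after length correction (adjusted p = 0.111). Lower guidance members numbered 34 without KO1, 22 without KO2, 1 without WT1 and 0 without WT2, and lower adhesion members 14 without KO1, 13 without KO2, 2 without WT1 and 1 without WT2.

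Of 47 Wnt pathway genes 2 were higher and 16 lower (median -1.17), the lower share being 34.0% against 23.0% of all genes. Their median transcript was 3777 bases, and of all tested genes of 3607 to 4245 bases 37.4% were lower. After length correction 1 Wnt gene was higher and 5 lower, against 11.0% and 9.87% of all genes. In all 3 fits 5 were lower, against 3.97% of all genes. Ctnnb1, beta-catenin, had 1489 in KO1 and 1059 in KO2 against 5055 in WT1 and 5516 in WT2 (4.2-fold lower, 2.45-fold length-corrected), Fzd7, a frizzled receptor, 83.4 in KO1 and 68.0 in KO2 against 532 in WT1 and 812 in WT2, and Ror1, a Wnt5a receptor, 32.7 in KO1 and 34.0 in KO2 against 353 in WT1 and 402 in WT2. Of 31 BMP and TGF-beta pathway genes 2 were higher and 9 lower, a lower share of 29.0%. Their median transcript was 3849 bases, in the same length class of which 37.4% were lower. After length correction 5 were higher and 4 lower (median -0.27 against -0.16 over all genes), and 0 and 3 held in all 3 fits. Smad4, the common Smad, had 422 in KO1 and 524 in KO2 against 1628 in WT1 and 1666 in WT2, Acvr2b, an activin receptor, 330.4 in KO1 and 316 in KO2 against 1064 in WT1 and 958 in WT2, and Tgfbr1, the TGF-beta type I receptor, 83.4 in KO1 and 23.8 in KO2 against 587 in WT1 and 1090.0 in WT2. Of 23 FGF pathway genes 0 were higher and 6 lower, a lower share of 26.1% near that of all genes, and 1 was lower in all 3 fits. It was Dusp6, the ERK phosphatase induced by FGF, at 538 in KO1 and 379 in KO2 against 1676 in WT1 and 1474 in WT2. Etv5, an FGF-induced factor, had 183 in KO1 and 96.9 in KO2 against 555 in WT1 and 606 in WT2 and lost its call with the shortest transcript (adjusted p = 0.0515). Of 40 Notch, hedgehog and retinoic acid genes 9 were higher and 7 lower, shares of 22.5% and 17.5% that lie near those of all genes.

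Cell cycle genes were called lower more often than higher as deposited. Of 37 mitosis genes 5 were higher and 23 lower (median -1.43), shares of 13.5% and 62.2% against 24.5% and 23.0% of all genes. After length correction 5 were higher and 18 lower (median -0.70), against 11.0% and 9.87% of all genes. In all 3 fits 2 were higher and 8 lower, against 5.76% and 3.97% of all genes. Kif11, the motor that separates the spindle poles, had 181 in KO1 and 173 in KO2 against 911 in WT1 and 1242 in WT2 and fell in all 3. Smc2, a condensin subunit, had 448 in KO1 and 393 in KO2 against 1629 in WT1 and 1638 in WT2, with a length-corrected -0.44 (adjusted p = 0.152). Birc5, survivin, had 9543 in KO1 and 11309 in KO2 against 2452 in WT1 and 2253 in WT2 and Ube2c, the ubiquitin enzyme of the anaphase-promoting complex, 8300.2 in KO1 and 9209 in KO2 against 2529 in WT1 and 2159 in WT2, and both were higher in all 3 fits. Birc5 went from a length-corrected 2.75 with its longest to 0.95 with its shortest transcript. Of 39 replication genes 11 were higher and 18 lower (28.2% and 46.2%, median -0.52), and 4 and 6 in all 3 fits. Mcm3 and Mcm4, of the replicative helicase, had 1200.2 and 1285 in KO, 3606 and 3807 in WT and 721 and 445 in KO, 2827 and 3286 in WT, and Uhrf1, which keeps DNA methylation through replication, 1022 and 748 in KO, 3028 and 3200.5 in WT, and these fell in all 3. Gins2, of the same helicase complex, had 1938 in KO1 and 1936 in KO2 against 600.4 in WT1 and 502 in WT2 and was higher in all 3. The number of lower mitosis genes was 26 without KO1, 24 without KO2, 4 without WT1 and 0 without WT2.

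**Figure D4:**
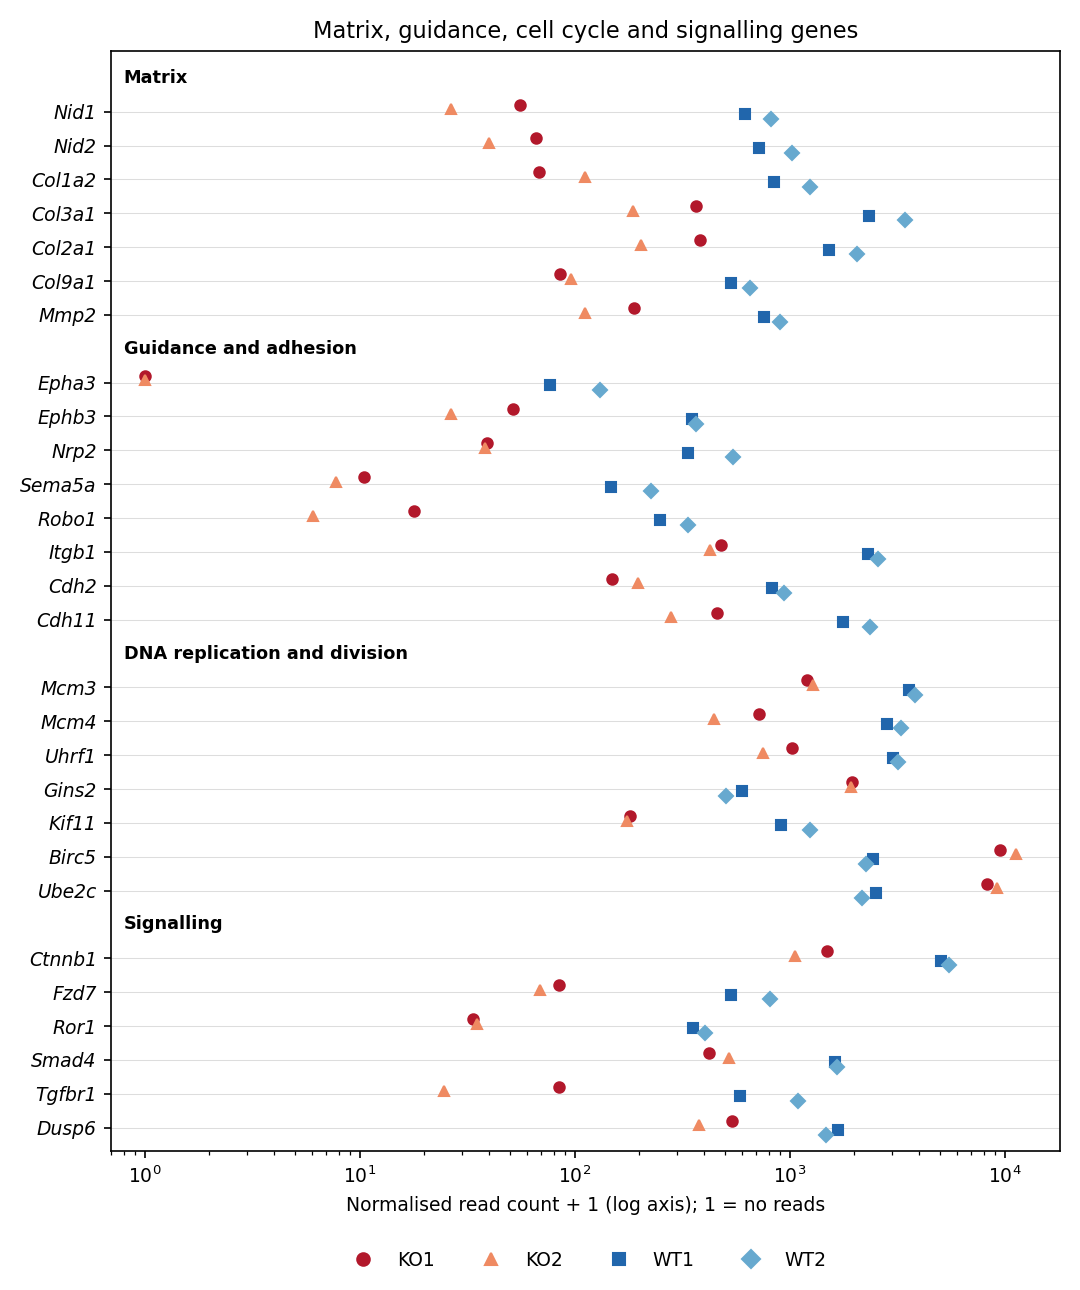
Normalised read count + 1 on a log axis in each of the 4 libraries for matrix, guidance and adhesion, cell cycle and signalling genes. All genes drawn lie lower in both KO libraries than in both WT libraries except Gins2, Birc5 and Ube2c, which lie higher.

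Messages with a seed match were not higher as a class in the deposited values. The median log2 difference was -0.90 over the 415 tested genes with an 8mer, -0.80 over 1998 with only a 7mer (AGCACTT or GCACTTA) and -0.0020 over 9071 with neither. Genes with a site have longer 3′UTRs, with medians of 3006, 2410.5 and 938 bases. After length correction the medians were 0.07, 0.03 and -0.19. Within genes with 3′UTRs of 1851 bases or more they were 0.19 for 300 genes with the 8mer, 0.23 for 1292 with a 7mer and 0.13 for 2236 with neither, and among genes with shorter 3′UTRs, classes with a site had medians of -0.10 to -0.29 against -0.24 and -0.28 with neither. Of all 8mer genes 63 were higher and 16 lower after length correction, 15.2% and 3.86%, against 9.84% and 10.9% of all genes with neither site. Among the long 3′UTRs the shares were 17.3% and 2.67% with the 8mer against 17.7% and 6.48% with neither.

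Of 36 genes reported as targets of the miR-302 family 3 were higher and 12 lower (median -0.80). These shares of 8.33% and 33.3% stand beside 24.5% and 23.0% of all genes. Their median transcript was 4557 bases, and of all tested genes of 4248 to 5098 bases 45.1% were lower. After length correction 3 targets were higher and 2 lower (median 0.28), against 11.0% and 9.87% of all genes, with 1 and 2 in all 3 fits. Rhoc, a small GTPase of the cytoskeleton, was the higher one, with 916 in KO1 and 1063 in KO2 against 133 in WT1 and 121 in WT2 (7.75-fold, and 2.29-fold length-corrected, adjusted p = 0.0208). The lower ones were Smarcc1, a chromatin remodelling subunit, with 708 in KO1 and 581 in KO2 against 2845 in WT1 and 3749 in WT2, and Kdm1a, a histone demethylase, with 863 in KO1 and 707 in KO2 against 2067 in WT1 and 2297 in WT2. Ccnd3, cyclin D3, had 5479 in KO1 and 3930.5 in KO2 against 1976 in WT1 and 1686 in WT2 and turned from a length-corrected 0.77 to -0.04 with the shortest transcript. Cdkn1a, whose 8mer is printed above, had 55.9 in KO1 and 104 in KO2 against 23.3 in WT1 and 26.7 in WT2 (log2 1.57 ± 0.56 SE, adjusted p = 0.0657). Fgf15 had 108 in KO1 and 117 in KO2 against 53.7 in WT1 and 35.8 in WT2 (adjusted p = 0.0541), with KO above WT in each case, and Ccnd1, cyclin D1, 431 in KO1 and 399.5 in KO2 against 490.1 in WT1 and 487 in WT2. Tmem245, with 2 copies of the 8mer, fell, with 11.6 in KO1 and 0 in KO2 against 165 in WT1 and 280.1 in WT2, and missed the threshold after correction over the longest transcripts (log2 -4.52 against -5.93 as deposited, adjusted p = 0.0571) while it passed over the shortest (adjusted p = 0.0304).

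Early-embryo and regulatory genes went both ways. Of 9 pluripotency and epiblast factors 2 were higher and 4 lower (median -0.60), shares of 22.2% and 44.4% against 24.5% and 23.0% of all genes. In all 3 fits 1 was higher and 1 lower. Nanog, a pluripotency factor, had 916 in KO1 and 600.1 in KO2 against 91.1 in WT1 and 88.3 in WT2 and was higher in all 3 fits. It has near-identical pseudogenes whose reads the counting could have split. Trim71, a let-7 target that maintains early programmes, had 78.1 in KO1 and 71.4 in KO2 against 639.9 in WT1 and 650.5 in WT2 and fell in all 3, while Lin28b, the let-7 inhibitor, had 339 in KO1 and 270.3 in KO2 against 825 in WT1 and 1286 in WT2 and a length-corrected -0.28 (adjusted p = 0.33). Of 20 genes of the microRNA machinery 2 were higher and 10 lower, or 10% and 50%, and 1 and 2 in all 3 fits. Their median transcript was 5961.5 bases, and of all tested genes of 5099 to 6685 bases 44.5% were lower. Ago2, the slicing Argonaute, had 71.8 in KO1 and 52.7 in KO2 against 424 in WT1 and 475 in WT2 and lost its call with the shortest transcript (adjusted p = 0.0597). Of 62 chromatin genes 2 were higher and 33 lower (median -1.46), shares of 3.23% and 53.2% against 24.5% and 23.0% of all genes. Their median transcript was 6233.5 bases, and of all tested genes of 5099 to 6685 bases 44.5% were lower (median -1.63). After length correction 2 chromatin genes were higher and 10 lower (median -0.34), against 11.0% and 9.87% of all genes. Chd7, the remodeller mutated in CHARGE syndrome, had 322 in KO1 and 287 in KO2 against 1509 in WT1 and 1431 in WT2, with a length-corrected -0.82 (adjusted p = 0.0794) over the longest and -1.32 (adjusted p = 0.0155) over the shortest transcripts.

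Of 33 unfolded protein and heat shock genes 9 were higher and 11 lower, shares of 27.3% and 33.3% against 24.5% and 23.0% of all genes. After length correction 3 of 32 were higher and 11 lower, against 11.0% and 9.87% of all genes. In all 3 fits 2 were higher and 6 lower, against 5.76% and 3.97% of all genes. Hspa5, the endoplasmic reticulum chaperone BiP, had 4267 in KO1 and 4631 in KO2 against 15024 in WT1 and 14966 in WT2, 3.37-fold lower and 1.86-fold length-corrected. Of 28 p53 pathway genes 3 were higher and 4 lower, shares of 10.7% and 14.3% against 24.5% and 23.0% of all genes. In all 3 fits 0 were higher and 1 lower. Sesn1 was the one that held, with 13.7 in KO1 and 11.9 in KO2 against 93.2 in WT1 and 108 in WT2, while Bax, a pro-apoptotic BCL2 protein with a transcript of 867 bases, had 7571 in KO1 and 8242 in KO2 against 1473 in WT1 and 1284 in WT2 and a length-corrected 0.22 (adjusted p = 0.202) over the longest and 1.04 (adjusted p = 0.0077) over the shortest transcripts. Among 28 imprinted genes 6 were higher and 7 lower, shares of 21.4% and 25% that lie near those of all genes. H19, the maternally expressed noncoding RNA, had 1232 in KO1 and 1018 in KO2 against 307 in WT1 and 409 in WT2 and was higher in all 3 fits, and Peg3, a paternally expressed zinc finger gene, had 69.7 in KO1 and 10.2 in KO2 against 752 in WT1 and 2154 in WT2 and was lower in all 3. Dlk1 had 853 in KO1 and 643 in KO2 against 346 in WT1 and 377 in WT2 and turned from a length-corrected 2.26 to -0.40 with the shortest transcript. Of 21 immediate early genes 2 were higher and 3 lower, 9.52% and 14.3%, and 0 and 2 held in all 3 fits. Myc had 483 in KO1 and 311 in KO2 against 1109 in WT1 and 1058 in WT2 and Cyr61, a matricellular YAP target, 213 in KO1 and 114 in KO2 against 873 in WT1 and 738 in WT2, and both fell in all 3 fits.

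Among the largest single falls were genes with almost no reads in KO. Stk26, a kinase of the Ste20 family (ENSMUSG00000031112.10, chromosome X, 50841047 to 50893097, plus strand), had 4.22 in KO1 and 0 in KO2 against 278 in WT1 and 483 in WT2 (log2 -7.33 ± 0.96 SE, adjusted p = 0.0039, and -6.54 length-corrected). Ly75, an endocytic receptor, had 0 in KO1 and 0 in KO2 against 94.2 in WT1 and 194 in WT2, and Dgkq, a diacylglycerol kinase, 0 in KO1 and 0 in KO2 against 67.8 in WT1 and 76.2 in WT2. With 3 reads allowed over the KO group they were at least 151 and 68.7-fold lower. Taok2, a kinase acting on microtubules and stress pathways, had 6.33 in KO1 and 0 in KO2 against 223 in WT1 and 314 in WT2, Jade3, a partner of a histone acetyltransferase, 2.11 in KO1 and 5.1 in KO2 against 175 in WT1 and 312 in WT2, and Itga8, an integrin alpha chain, 25.3 in KO1 and 0 in KO2 against 242 in WT1 and 333 in WT2. All but Itga8 held in all 3 fits. Upf1, the helicase of nonsense-mediated decay, fell from a higher level, with 53.8 in KO1 and 49.3 in KO2 against 920.4 in WT1 and 1178 in WT2, 19.8-fold and 8.13-fold length-corrected. These genes were named on condition that KO values lay below WT values, as they did in 41.7% of all genes tested. The lone values of 0 in KO2 come from the KO library with fewer reads, and whether depth accounts for them was not tested.

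Set side by side, most list medians moved toward 0 once length and GC content were removed. Among the lists with 10 or more genes tested the liver list stayed the furthest from 0, at 4.92. The next were the erythroid list at 3.31, with its KO1 reads, and the myeloid list at 1.88. On the lower side of these lists the matrix list stood at -1.15, the FGF list at -1.13, the otic list at -1.10, the adhesion list at -0.96 and the guidance list at -0.89, against -0.16 over all genes. The reported target list changed sign, from -0.80 to 0.28. Of 110 named genes called as deposited, 26 kept their direction but lost the call after length correction, and 15 with the shortest transcripts. Ccnd3 and Dlk1 also lost the call with the shortest transcripts, and changed sign.

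**Figure D5:**
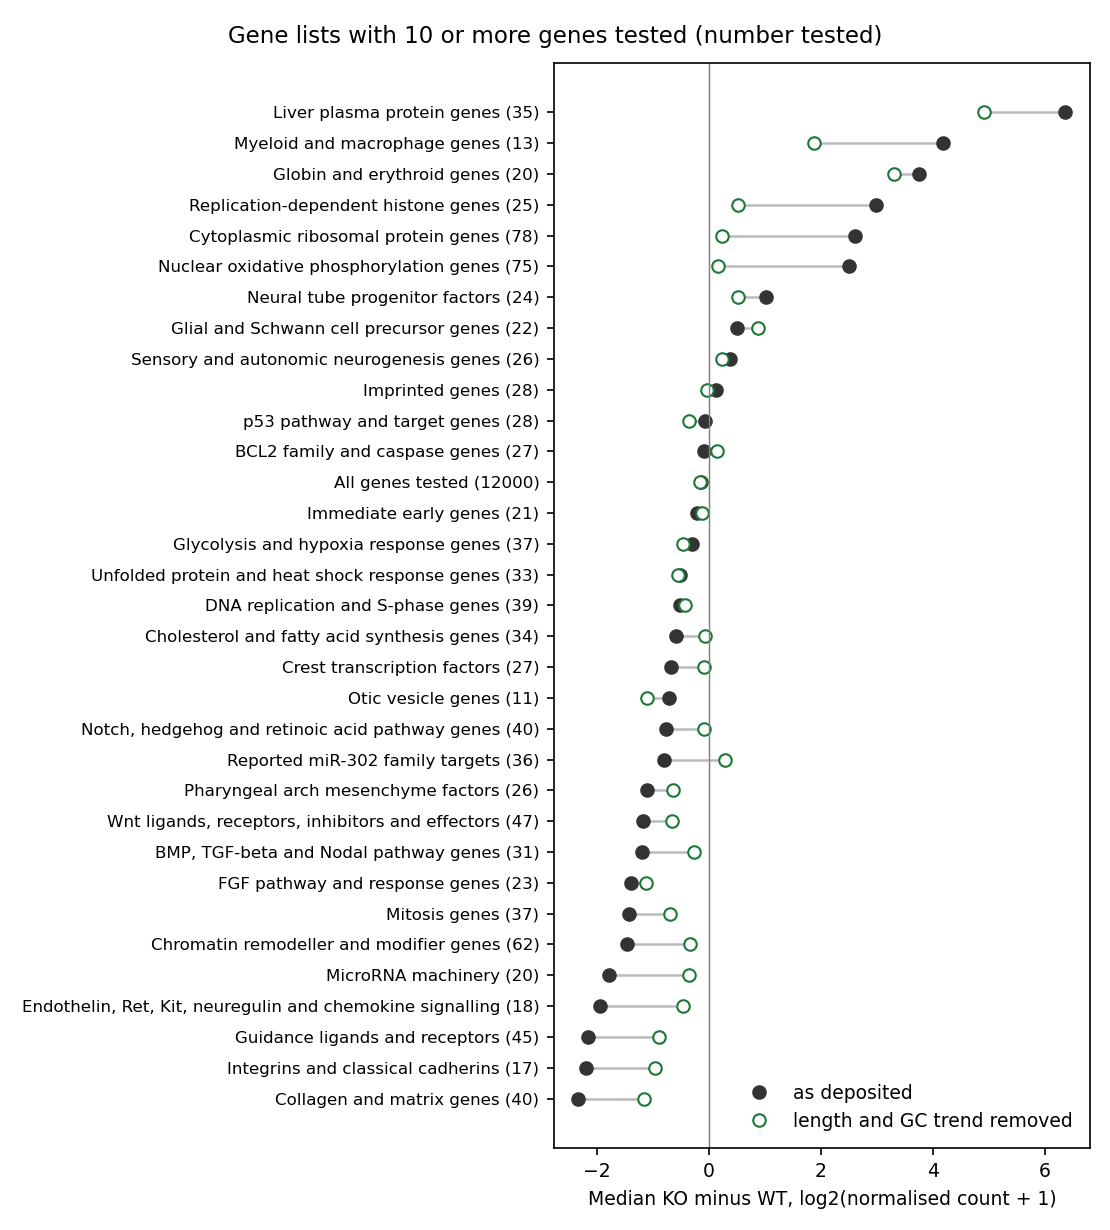
Median log2 difference (KO minus WT) of each gene list with 10 or more genes tested, as deposited (filled) and with each library's length and GC trend removed (open). The ribosomal, oxidative phosphorylation and histone lists move from 2.50 to 2.99 down to 0.15 to 0.52, and the liver list stays at 4.92.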

How the data were processed

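RNA of sorted cells was extracted with a miRNeasy column, copied with SMART-Seq v4, a low-input kit that does not mark strand, and made into Nextera XT libraries, per the labels' protocols. Per the submitters' processing notes, FastQC 0.11.5 and STAR 2.7.0f were used, with the build mm10. The sources used here name no counter, annotation or normaliser. For these cells the authors deposited normalised signal, gene counts divided by 1 factor per library. The authors' deposited lists give log2 fold changes and p-values per gene, all below an unadjusted 0.05.

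In each library 100% of values were whole multiples of 1 read within 0.01, which gave the depths. Values were analysed as log2(value + 1), which understates folds of low genes, for genes with a mean of 10 or more, by limma 3.58.1 (trended, two-sided, Benjamini-Hochberg, no covariate, R 4.3.3). Loess trends (span 0.3) ran over log10 length and then GC content of GENCODE M21 transcripts, matched for 24002 symbols. EdgeR 4.0.16 and DESeq2 1.42.0 used the recovered reads. Settings were tested on simulated data. A gene at 0 in a whole group was bounded with 3 reads over that group.

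The comparison, the 45 gene lists and the tests were chosen with earlier results of these data known. Genes were named by rule: the locus; the 10 most positive and 10 most negative called genes whose libraries did not overlap and whose higher mean reached 50, as deposited and length-corrected; up to 4 genes a list by p, or 10 by mean for liver and erythroid; and a preset list of crest and cell cycle genes. Genes called in all 3 fits (15 each way), and Robo1, Col3a1, Mmp2, Tubb3, Hnf4a, Afp, Ptprc, Mup2 and Mitf were chosen after their values were seen. Other stages were not used here, and a few genes named by rule are not reported here.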

Additional observations from a re-analysis of the deposited data

How the results depend on the processing

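The counts as deposited, 2944 genes higher and 2756 lower, stayed within 1.5 times under pseudocounts of 8 and 0.1, a minimum mean of 100 or none, a threshold of 0.1, quantile normalisation, TMM scaling, edgeR and DESeq2. They moved with the length trend removed alone (1254 higher and 1107 lower), with length and GC removed (1314 and 1177), and with the trend of the shortest transcripts, an alternative chosen after seeing the data (1767 and 1376). Scaling the libraries to equal totals without liver and blood genes gave 1606 and 5008, since it lowered every KO value. Calls higher in KO then made up 24.3% of all calls, against 51.6% as deposited, and with the size factors kept 51.3%, a fit also added after seeing the data. With a library left out, higher genes ranged from 740 to 4141 and lower genes from 54 to 4553, and the fits without a WT library took the spread from the KO pair alone. Of 110 named genes called as deposited, more lost the call when a WT library was left out than when a KO library was. The fits without a KO library took the spread from the WT pair alone. That pair lay closer, with a median absolute log2 difference of 0.206 against 0.580 for the KO pair. Calls kept without a KO library therefore cannot show that they do not depend on it. The titles number the libraries 1 and 2 in both genotypes, and deviations of same-numbered libraries correlated at -0.17, so the numbers are not taken as pairs. With a replicate block 2725 genes were higher and 2997 lower, and with the replicate block and the trend removed 1103 and 915. Crossed pairs (KO1 with WT2) as a block, added after seeing the data, gave 3140 and 3525. The block as such changed the call of none of the named genes called as deposited. Some genes changed sign, and of these Ccnd3 and Dlk1 had been called higher as deposited, at 1.35 and 1.03. With length and GC removed the genes that changed sign were Pax3 at 0.48, Tfap2b at 1.01, Ccnd1 at 0.54 and Xist at 0.70. The replicate block with that trend removed gave the same genes and values. With length alone removed they were Pax3 at 0.43, Tfap2b at 0.95, Ccnd1 at 0.59 and Xist at 0.70, with the shortest transcripts Pax3 at 0.55, Ccnd3 at -0.039, Ccnd1 at 0.98, Dlk1 at -0.40, Larp7 at 0.15 and Xist at 1.10, and with equal totals Sox10 at -0.69, Foxd3 at -0.20 and Tfap2a at -0.41. In DESeq2 it was Larp7 at 0.0059. Over the fits that leave a library out, log2 differences ran from -0.41 to 0.78 for Sox10, -0.27 to 1.61 for Foxd3, -1.23 to 0.11 for Tfap2b, -0.74 to 0.44 for Larp7 and -1.33 to 0.017 for Xist. The causes of these changes were not tested. Each zero of a gene allows 3 reads, and with 2 libraries a group, single-library events such as the KO1 globins cannot be replicated.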

Other observations

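Metabolic and cell death lists held calls in both directions. Of 34 genes of cholesterol and fatty acid synthesis 7 were higher and 13 lower in KO, with a median log2 difference of -0.60. The shares were 20.6% and 38.2% against 24.5% and 23.0% of all genes, and 1 and 3 held in all 3 fits. Of 37 glycolysis and hypoxia genes 8 were higher and 11 lower (21.6% and 29.7%, median -0.31). After length correction 1 was higher and 8 lower (median -0.46), and 1 and 2 held in all 3 fits. BCL2 family and caspase genes numbered 7 higher and 7 lower of 27, 25.9% each way and near the 24.5% and 23.0% of all genes, with a median of -0.09.

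Markers of other tissues had few genes tested, and their shares stand beside 24.5% higher and 23.0% lower over all genes. Of 7 endothelial genes tested 2 were higher and 0 lower, of 5 muscle genes 2 and 0, and of 7 somite genes 1 and 1, and none of these held in all 3 fits. Otic vesicle genes had 1 higher and 3 lower of 11, with 1 and 2 in all 3 fits. Among 8 nuclear and long noncoding transcripts 3 were higher and 1 lower, and none held in all 3 fits.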
